A study of Mus musculus with 12 samples.

Results

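Pla2g15 and Pla2g16 are 2 of the 58 gene models measured here in D1, a mouse cell line known as a growth factor-dependent dendritic cell line of spleen origin. They were chosen by gene symbol and are described over all their exon bins, the non-overlapping pieces into which the exons of a gene model are divided. Each gene had 8 bins, E001 to E008, so the pair held 16 of the 925 bins used. The samples were mixed on a computer from sequencing reads of D1 total RNA. A background of Illumina TruSeq reads, from a poly(A)-selected library that does not mark strand, came from 1000 ng or 100 ng of RNA. To it were added reads of listed transcripts, which the submitters extracted from 20M, 40M or 80M reads (M, 1e6 reads; called source reads here) of one of 2 kits, NuGENv2 with an input of 2 ng or TruSeq with 100 ng. This gave 12 samples, with 5 replicates in each, and 6 tables that each set the 5 replicates of the 1000 ng background beside the 5 of the 100 ng background. The replicates were paired-end read sets, and the labels do not say that they were separate cultures, so p-values measure the spread between these read sets, which may be technical.

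Pla2g15 encodes the lysosomal phospholipase A2, an acidic enzyme related to lecithin-cholesterol acyltransferase, which degrades membrane phospholipids in lysosomes and is known for its part in phospholipid turnover in macrophages of the lung. Pla2g16 encodes a small membrane-bound phospholipase of a different family, the HRAS-like suppressors. It is abundant in fat cells, where it is known to release fatty acids that restrain lipolysis, and it is a known host factor for picornavirus entry. The 2 enzymes share the name and the reaction but belong to different families and act in different compartments. Per the labels, Pla2g15 carried added kit reads of transcript uc009nfj.1 in the 100 ng background only. Pla2g16 carried none. Its transcripts were on a list of synthetic reads with uniform coverage, uc008glj.1 in the 1000 ng background and uc008glh.1 and uc008gli.1 in the 100 ng background.

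In the GENCODE M1 annotation of NCBIM37, the same assembly as mm9, Pla2g15 (ENSMUSG00000031903.6) lies on the plus strand at chr8:108674299-108688613. Pla2g16 (ENSMUSG00000060675.7) lies on the plus strand at chr19:7631949-7663035. The tables give no coordinates, so bins were placed here by their lengths, which were themselves inferred from the values. All 8 bins of Pla2g16 and 6 of the 8 of Pla2g15 could be placed in annotated exons. In Pla2g15, E001 was exon 1, with the start of the 5′ untranslated region, and E002, E003 and E005 were coding exons 2, 3 and 4. E006 and E007 together filled coding exon 5 and divided it at base 108685108, a boundary that is not annotated and was set by their lengths. E008 was 1891 bases wide and matched exon 6, which holds the end of the coding sequence and the 3′ untranslated region, except that it was longer than its 1889 annotated bases. E004, 251 bases wide, matched no annotated exon, and by its number it lies between exons 3 and 4. In Pla2g16, E001 and E002 were the untranslated first exon, and E003 was an extension of it used by Pla2g16-002 and Pla2g16-004. E004 held the start codon, E005 and E006 were coding, E007 was the alternative 3′ end of Pla2g16-003, and E008 was the last exon of Pla2g16-001, which also contains the shorter last exon of Pla2g16-002, with the stop codon and the 3′ untranslated region.

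In each gene 1 bin boundary fell inside annotated coding sequence, and its sequence is shown because it sets which bins can tell isoforms apart. Each window has 15 bases on either side of the boundary, 5′ to 3′ on the plus strand of NCBIM37. Capitals mark the GT that follows a donor boundary or the AG that precedes an acceptor boundary. In each pair an annotated splice site of the same gene comes first.
Pla2g16 E005 end, chr19:7649515-7649544: acctggctcctccaaGTaagaacaccaggg
Pla2g16 E006/E007, chr19:7653698-7653727: cctcggagtgatcagGTgtgtcaccgtccc
Pla2g15 E006 start, chr8:108684969-108684998: ggctctggcctgcAGatgaaaacgggccct
Pla2g15 E006/E007, chr8:108685094-108685123: ctctactttctgcAGcggcagccacaagtc
Both inner boundaries carried the same dinucleotide as the annotated site above them. The Pla2g16 boundary is itself the annotated end of exon 4 in Pla2g16-001 and Pla2g16-002, so its match was known in advance. Only the Pla2g15 boundary is not annotated. Transcripts that read through the Pla2g16 boundary keep E007, and those that splice there go on to E008. For Pla2g15 the AG stands inside exon 5, and the transcript that would use it as an acceptor is not in the annotation used here.

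Levels are given as FPKM equivalents, reads per kilobase of bin and per 1e6 reads of the library, computed here from reads recovered from the deposited values. Replicates held between 347941 and 593002 reads in all bins in the 1000 ng background and between 237258 and 492142 in the 100 ng background. With 20M TruSeq reads the 100 ng replicates instead held 1101798 to 1281559, and results of that table are given separately. Of 8 dendritic cell markers, only Sirpa and Mgl2 were among the 58 models, and both carried added kit reads in the 100 ng background. Both were measured in the 1000 ng background, which had none of those reads: Mgl2, a macrophage and dendritic cell lectin, at 504.3 ± 33.2 (SD, n = 5) and Sirpa, an inhibitory receptor of myeloid cells, at 66.3 ± 3.63. The 4 adipocyte markers and the 38 other phospholipase and lysosomal lipid genes looked for were not among the 58 models (0 of 4 and 0 of 38), so the rest of the pathway was not analysed here.

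With 20M NuGENv2 source reads, the table with the fewest added reads, both phospholipases were detected in every replicate at low to moderate levels. Some of these reads may not come from the background library. Pla2g16 transcripts were on the synthetic list in both backgrounds, and Pla2g15 carried kit reads in the 100 ng background. These counts cannot tell such reads apart. Pla2g15 had 592, 1072, 457, 521 and 384 reads over its bins in the 1000 ng replicates and 380, 353, 872, 705 and 346 in the 100 ng replicates. Pla2g16 had 555, 1128, 434, 495 and 432 reads in the 1000 ng replicates and 375, 281, 810, 667 and 296 in the 100 ng replicates. The same replicates were read-rich for both genes: replicate 2 of the 1000 ng background and replicates 3 and 4 of the 100 ng background. Per kilobase and library, Pla2g15 stood at 6.70 ± 0.732 (SD, n = 5) and Pla2g16 at 3.16 ± 0.373 in the 1000 ng background, so Pla2g15 was the higher of the 2 when averaged over all bins. In bulk RNA a level cannot tell fewer expressing cells from less RNA per cell. The bins E004, E005 and E006 of Pla2g16, which hold its coding sequence from the start codon on, measured 47.2 ± 9.91, 38.2 ± 5.75 and 23.8 ± 1.81 FPKM equivalents, against 5.48 ± 1.18 to 11.6 ± 2.02 in the annotated exon bins of Pla2g15. The former bins were 64, 103 and 269 bases wide and the latter 99 to 1891. The effect of bin width on these levels was not tested.

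**Figure D1:**
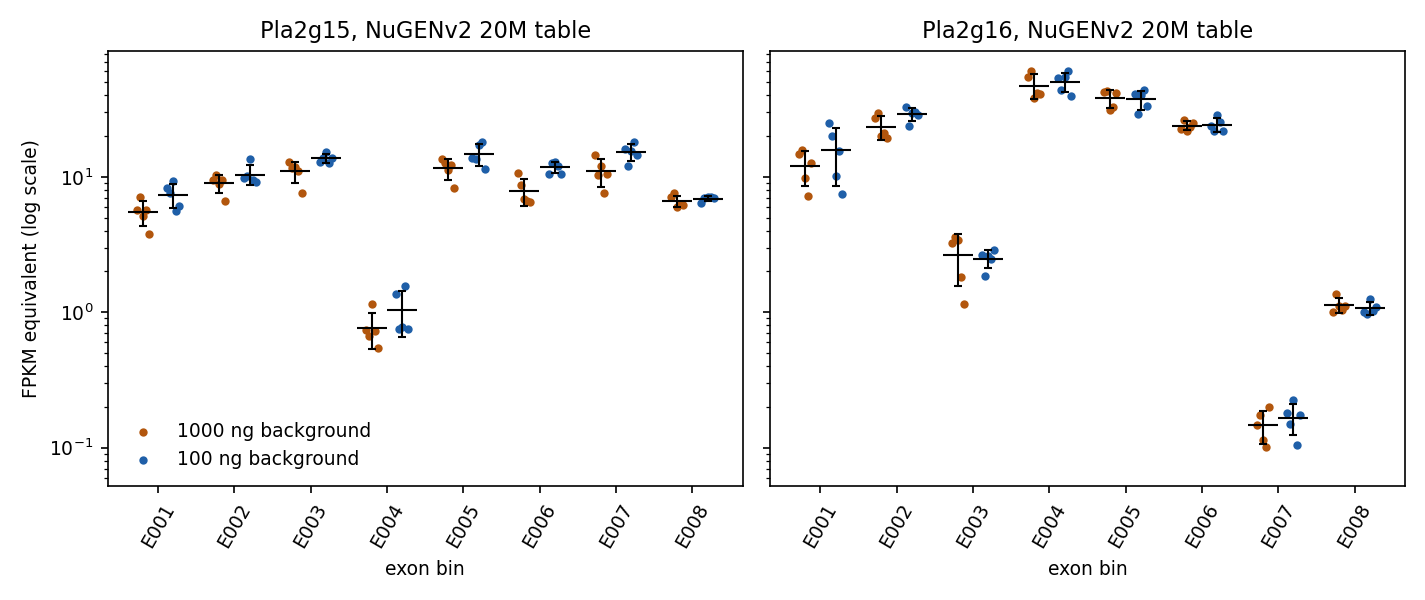
Level of each exon bin in the table with 20M NuGENv2 source reads (FPKM equivalent, log scale) for Pla2g15 and Pla2g16. Points are the 5 replicates of each background and bars are mean ± SD; E004 of Pla2g15 and E003, E007 and E008 of Pla2g16 lie far below the other bins, alike in both backgrounds.

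Within Pla2g15, the bins in annotated exons were within a narrow range and E004 stood apart. E004 measured 0.760 ± 0.226 FPKM equivalents at 1000 ng and 1.04 ± 0.390 at 100 ng (SD, n = 5). It held 3 to 8 reads per replicate in the former and 3 to 12 in the latter. No other bin of the gene was below 3.79 in any replicate of that table.

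Within Pla2g16, the extension of the first exon and the 3′ end were far below the bins between them. E003, the extension, stood at 11.2% ± 4.21 of E002 per base at 1000 ng and at 8.60% ± 0.973 at 100 ng (SD, n = 5). Its 5 values were 12.1, 12.1, 17.1, 8.70 and 5.88% in the former and 7.97, 7.78, 8.84, 8.22 and 10.2% in the latter. The ranges overlapped, and E003 rested on 6 to 41 reads. At the 3′ end, coding bin E006 was 21.3 ± 1.62-fold above the last exon bin E008 per base at 1000 ng and 22.8 ± 1.88-fold above it at 100 ng. E008 was in turn 8.07 ± 1.96-fold and 6.73 ± 1.74-fold above E007, the alternative 3′ end. E007 had 6 to 21 reads over 2506 bases, and E008 had 46 to 196 over 2981 bases, so both 3′ ends were thinly covered. These ratios compare bins of unlike width, E003 with 238 bases and E002 with 80, E006 with 269 bases and E008. How reads at bin edges were counted is not described, and how far width shaped these per-base ratios was not tested.

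The added kit reads changed Pla2g15 in the 100 ng background and left it as it was in the 1000 ng background. In the 1000 ng background each bin of both genes had the same number of reads in all 6 tables. In the 100 ng background every replicate of Pla2g15 gained the same reads, 59 from 20M to 40M and 87 from 40M to 80M NuGENv2 source reads. From 40M to 80M TruSeq source reads it gained 588. The TruSeq library therefore added 6.76 times as many reads as the NuGENv2 library over the same step. Because these libraries also differed in RNA input, this ratio cannot be credited to the kit alone. Among the 15 models listed for kit reads in the 100 ng background with gains from both kits, this ratio ranked 3rd and the median was 3.12. Rhbdd3, a rhomboid-like protein gene (140 against 14 reads), and Nono, a nuclear RNA-binding protein gene (1284 against 136), were higher. Because the added reads were the same in every replicate, the spread after scaling comes from the background and from the scaling.

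**Figure D2:**
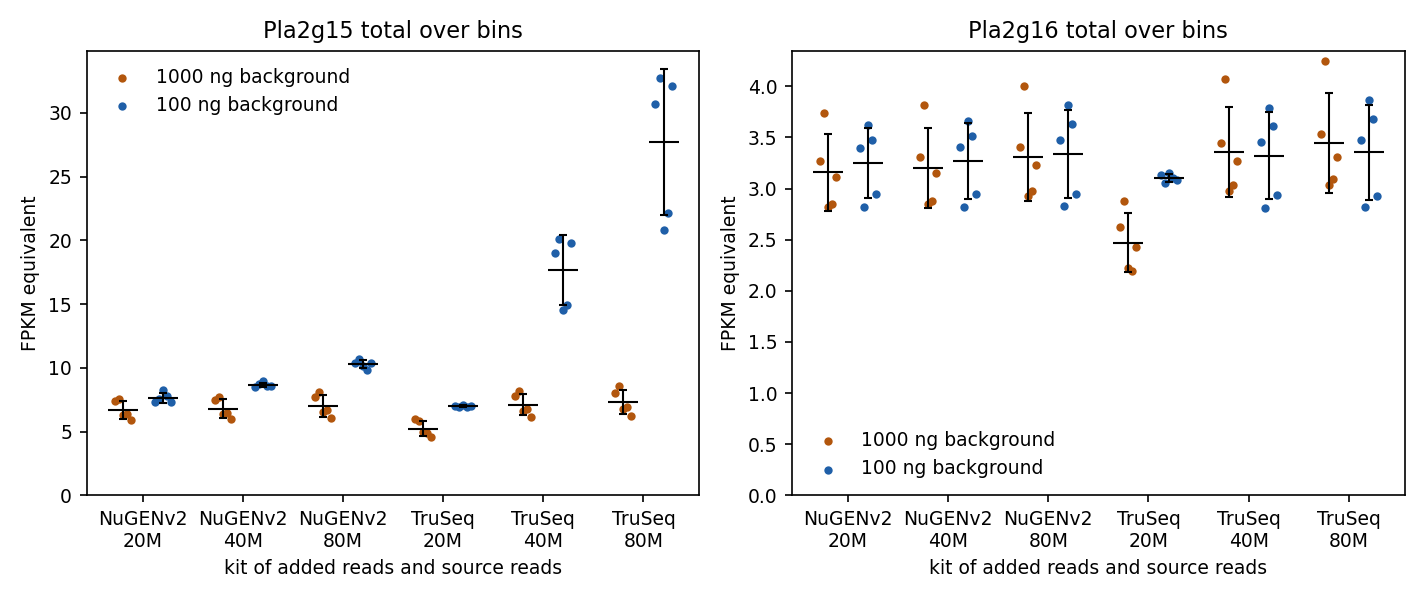
Total over bins of Pla2g15 and Pla2g16 (FPKM equivalent) in the 6 tables, by kit and source reads. Points are the 5 replicates of each background and bars are mean ± SD; Pla2g15 climbs with added TruSeq reads in the 100 ng background only, and the Pla2g16 backgrounds overlap except with 20M TruSeq reads.

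With 20M NuGENv2 source reads the Pla2g15 total was 7.40, 7.54, 6.31, 6.36 and 5.87 FPKM equivalents in the 1000 ng replicates and 7.30, 7.52, 8.27, 7.79 and 7.32 in the 100 ng replicates. The groups overlapped, and the log2 fold change (1000 ng minus 100 ng, on the log2(FPKM equivalent + 1) scale) was -0.17 ± 0.07 (SE; limma, adjusted p = 0.137, threshold 0.05). With 80M NuGENv2 source reads the 1000 ng mean was 7.02 ± 0.840 and the 100 ng mean was 10.3 ± 0.308 (SD, n = 5), with 100 ng replicates between 9.82 and 10.7. All 5 lay above the highest 1000 ng replicate, 8.07, and the log2 fold change was -0.50 ± 0.07 (limma adjusted p = 0.000592). At 40M it was -0.32 ± 0.07 (limma adjusted p = 0.00867). Both NuGENv2 calls were lost without scaling, at log2 fold changes of 0.03 at 40M and -0.17 at 80M (adjusted p = 0.953 and 0.788). With total-read scaling the log2 fold changes stayed at -0.31 and -0.50 but did not pass (adjusted p = 0.876 and 0.442). As deposited they were lost too (-0.01 and -0.05), and with a replicate block the adjusted p at 40M was 0.052.

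TruSeq reads gave the larger difference. With 40M source reads the 100 ng replicates of Pla2g15 measured 19.0, 20.1, 14.6, 14.9 and 19.8 FPKM equivalents, against 6.18 to 8.22 in the 1000 ng replicates. With 80M they measured 30.7, 32.7, 20.8, 22.1 and 32.1, against 6.24 to 8.56. Replicates 3 and 4, which had the most reads with 20M NuGENv2 source reads, were lowest, and no 100 ng replicate came near the 1000 ng range. The log2 fold change was -1.20 ± 0.11 at 40M (limma adjusted p = 3.19e-05) and -1.77 ± 0.15 at 80M (limma adjusted p = 8.11e-06). The call at 80M held under every alternative tried, and the call at 40M was lost without scaling (log2 fold change -0.88, adjusted p = 0.0787) and with the values as deposited (-0.21, adjusted p = 0.0944). Kit reads of Pla2g15 were added to the 100 ng background alone, so the mixing set the direction of these differences in advance. The Pla2g15 calls of level and kit difference, above and below, are therefore description and no independent support. Its usage and share tests likewise set added reads against a background without them. Among all 58 models the share called was 5.17%, 17.2% and 24.1% in the NuGENv2 tables at 20M, 40M and 80M, and 39.7% and 41.4% in the TruSeq tables at 40M and 80M. These counts depended on the scaling. With NuGENv2 reads, 2 models were called higher at 1000 ng and 8 at 100 ng at 40M, and 3 and 11 at 80M. Without scaling these became 3 and 1 at either depth, and with total-read scaling 3 and 2 at 40M and 3 and 3 at 80M, so the excess at 100 ng was lost. With 40M TruSeq reads 8 and 15 became 3 and 1 without scaling and 3 and 7 with total-read scaling. With 80M TruSeq reads more models were higher at 100 ng under each scaling, at 9 and 15, 5 and 7 without scaling, 5 and 10 with total-read scaling and 4 and 5 as deposited. Without scaling the median log2 fold change of all 58 models at 80M moved from -0.06 to 0.24 with NuGENv2 reads and from -0.09 to 0.21 with TruSeq reads, and Pla2g15 at 80M TruSeq reads lay below that median in either case (-1.77 and -1.47).

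The added Pla2g15 reads of the 2 kits lay differently along the transcript. Each kit came with its own RNA input, so kit and input cannot be told apart here. Every replicate also received the same added reads, so these gains have no replicates of their own. From 40M to 80M TruSeq source reads, E008 gained 496 reads, E001 gained 34, E006 gained 18 and E007 gained 21. The coding bins in between gained little: E002 gained 7, E003 gained 5 and E005 gained 4, with 3 in E004. E002 to E005 thus took 19 of 588 added reads, or 3.23% (exact Clopper-Pearson 95% interval 1.96 to 5.00). Over the same step the NuGENv2 library added 2, 6, 0 and 7 reads to E002, E003, E004 and E005, or 15 of 87, which is 17.2% (9.98 to 26.8). In the 1000 ng background, with no added reads, the same 4 bins held 20.6, 19.8, 22.3, 22.1 and 16.7% of the gene's reads. The earlier NuGENv2 step, from 20M to 40M, put 19 of 59 added reads there, or 32.2% (20.6 to 45.6). The TruSeq gain was below every replicate of the background, whereas the intervals of both NuGENv2 steps overlapped the range of its replicates. These intervals cover counting error only, and read pairs are not independent molecules. The read totals are sums over bins, and a read that spans several bins may be counted in each, which was not tested.

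**Figure D3:**
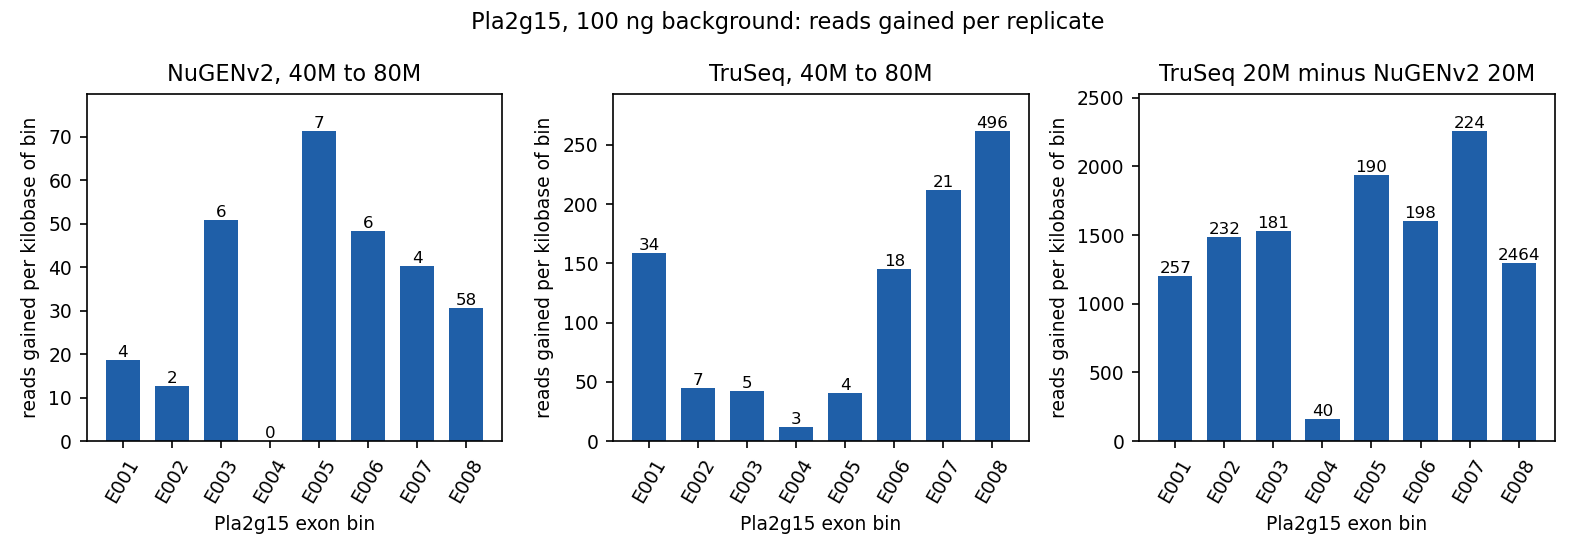
Reads gained by each Pla2g15 bin in the 100 ng background, per kilobase of bin, with the read number above each bar; each replicate gained the same reads, so there is no error bar. In the TruSeq step from 40M to 80M (middle), E002, E003 and E005 gained 7, 5 and 4 reads, far fewer per kilobase than E008. The NuGENv2 step (left) gave them similar numbers, 2, 6 and 7 reads, with E003 and E005 above E008 per kilobase. In the extra reads of the 20M TruSeq table (right) these bins were all above E008 per kilobase.

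The first NuGENv2 step had a different profile again. From 20M to 40M, E006 gained 10 reads and E007 gained 8, more than any bin but E008, which gained 18 in a bin 1891 bases wide. E008 took 30.5% of that gain (exact Clopper-Pearson 95% interval 19.2 to 43.9) and 66.7% of the next (55.7 to 76.4), so the intervals of the 2 NuGENv2 steps did not overlap. In the TruSeq step it took 84.4% (81.2 to 87.2). At 40M the TruSeq table had fewer reads than the NuGENv2 table of the same depth in E002, E003 and E005, by 4, 9 and 6 reads in every replicate, and 515 more in E008. At 80M it still had fewer in E003 and E005, by 10 and 9 reads.

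The bin tests followed these gains. With NuGENv2 reads, 0, 4 and 8 of the 8 Pla2g15 bins were called at 20M, 40M and 80M, all higher at 100 ng; at 20M 3 had an unadjusted limma p under 0.05. Over all 924 bins tested, 1.95%, 5.09% and 11.8% were called. The strongest at 80M was E006, at 11.2, 9.31, 7.15, 6.99 and 6.79 FPKM equivalents in the 1000 ng replicates and 18.2, 20.8, 17.4, 17.0 and 18.6 in the 100 ng replicates. These groups were well apart, and the log2 fold change was -1.08 ± 0.14 (limma adjusted p = 0.00105). The other 7 ranged from -0.35 ± 0.08 in E008 to -0.88 ± 0.15 in E007. No bin of the gene was called at either depth without scaling, with total-read scaling or with the values as deposited.

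With TruSeq reads, 5 and 6 of the 8 bins were called at 40M and 80M, again all higher at 100 ng, where 17.2% and 21.3% of all bins were called. E008, the last exon, measured 7.63, 8.55, 6.43, 6.79 and 6.62 FPKM equivalents in the 1000 ng replicates at 80M and 38.1, 41.2, 23.9, 26.3 and 40.6 in the 100 ng replicates. Its lowest 100 ng value was far above the highest 1000 ng value, and its log2 fold change was -2.07 ± 0.17 (limma adjusted p = 3.29e-05). E001, the first exon, measured 5.99 ± 1.44 at 1000 ng and 23.8 ± 4.94 at 100 ng (log2 fold change -1.83 ± 0.19). E006 and E007, the 2 parts of coding exon 5, had log2 fold changes of -1.35 ± 0.15 and -1.44 ± 0.16. At 40M the count of called bins fell to 2 with total-read scaling, 1 without scaling and 0 as deposited, and at 80M to 5, 4 and 3.

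The coding bins in the middle moved least. E003 measured 11.9 ± 2.25 at 1000 ng and 14.9 ± 1.06 at 100 ng with 80M TruSeq reads, and the log2 fold change, -0.32 ± 0.14, did not pass (limma, adjusted p = 0.149). E005 measured 12.6 ± 2.37 and 16.3 ± 2.98, with -0.35 ± 0.16 (limma adjusted p = 0.196). E002 passed at 80M with -0.44 ± 0.13 (limma adjusted p = 0.0417) and not at 40M (0.39). E004 was called at both depths, with -0.83 ± 0.13 at 80M, at means of 0.827 and 2.26 FPKM equivalents that rest on few reads.

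Bin usage within Pla2g15, the change of a bin relative to the other bins of its gene, was tested with limma diffSplice. With TruSeq reads, 5 of 8 bins were called at 40M and 5 at 80M, against 13.9% and 19.2% of all bins. At 80M, E008 and E001 were used relatively more in the 100 ng background (-1.13 and -0.85 on the log2 scale), and E002, E003 and E005 relatively less (0.72, 0.87 and 0.84). These calls depended on the scaling: with total-read scaling, without scaling and as deposited, 0 bins were called at 40M, and 2, 1 and 1 at 80M. With NuGENv2 reads, 0, 1 and 1 bins were called at 20M, 40M and 80M (at 20M, 0 had an unadjusted p under 0.05), against 3.9%, 5.52% and 10.8% of all bins, namely E008 at 0.47 and E006 at -0.47. E008 thus had opposite signs with 40M NuGENv2 reads and with TruSeq reads; the difference between those 2 values was not tested.

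Shares of the gene's reads need no scaling between columns and gave a similar picture for 4 of these bins. With 80M TruSeq reads E008 held 61.1, 64.0, 60.8, 63.0 and 68.0% of Pla2g15 reads in the 1000 ng replicates and 79.6, 80.6, 73.6, 76.3 and 81.2% in the 100 ng replicates. E003 held 6.93, 6.16, 7.44, 6.91 and 5.21% in the former and 1.86, 1.82, 3.21, 2.54 and 1.83% in the latter. Neither bin overlapped between backgrounds, and each reached p = 0.00794 in a two-sided exact permutation test, the smallest that 5 against 5 can give (adjusted p = 0.0356 over 925 bins). By this test 5 of 8 bins were called at 80M, E002, E003, E005, E006 and E008, and 4 at 40M, against 22.3% and 16.9% of all bins. E001, called by diffSplice, held 5.90% ± 0.836 and 6.24% ± 0.460 (SD, n = 5), which overlapped (adjusted exact permutation p = 0.644). E006 went opposite ways in the 2 measures: its share was lower at 100 ng, 3.60% ± 0.413 against 4.93% ± 0.665, while its usage value, -0.31, was toward more at 100 ng and did not pass (diffSplice adjusted p = 0.234). With 80M NuGENv2 reads E008 held 63.4% ± 2.88 at 1000 ng and 56.5% ± 1.44 at 100 ng, and E006 held 4.93% ± 0.665 and 7.52% ± 0.41. Neither overlapped between backgrounds, and each had an adjusted exact permutation p of 0.0528, which did not pass. How many of all bins were without overlap there was not counted. The E006 share was thus higher at 100 ng with these reads and lower with 80M TruSeq reads.

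**Figure D4:**
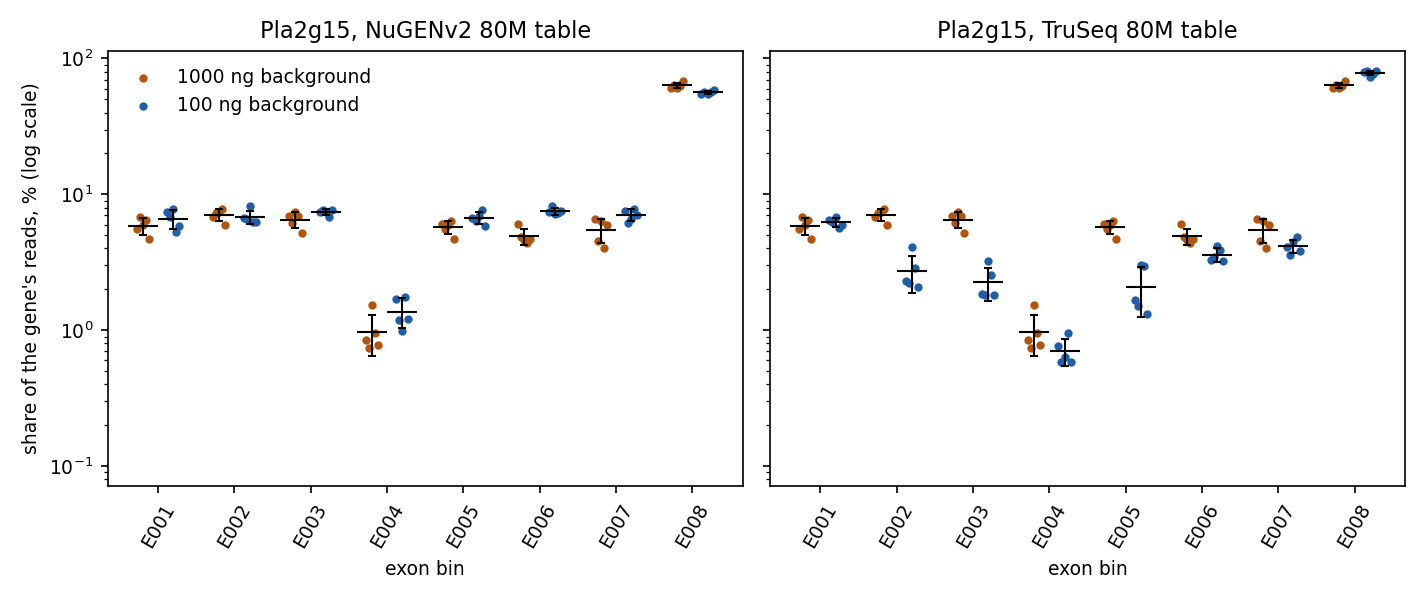
Share of Pla2g15 reads in each bin (%, log scale) with 80M NuGENv2 reads (left) and 80M TruSeq reads (right). Points are the 5 replicates of each background and bars are mean ± SD; in the TruSeq table E002, E003 and E005 of the 100 ng background drop below the 1000 ng replicates and E008 lies above them.

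The kit difference was also taken per replicate, as the log2 total in the TruSeq table minus that in the NuGENv2 table of the same depth. This difference covers kit and RNA input together, because each kit had its own input. For Pla2g15 with 40M source reads it was 0.06 ± 0.01 at 1000 ng and 0.94 ± 0.23 at 100 ng (SD, n = 5), and with 80M it was 0.05 ± 0.02 against 1.32 ± 0.27. The difference between backgrounds was -0.88 ± 0.09 (SE, limma adjusted p = 1.66e-05) at 40M and -1.27 ± 0.11 (adjusted p = 6.57e-06) at 80M. At both depths 100.0% of the 58 models passed this test, so passing it separates no model from another. Pla2g16, which gained no reads, passed with 0.04 ± 0.01 at either depth, a value that was 0 without scaling. 

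Pla2g16 did not differ detectably between backgrounds in any of the 5 tables other than TruSeq at 20M. None of its 8 bins gained a read with depth or kit, in either background, in those tables. With 80M TruSeq reads its total was 3.53, 4.25, 3.03, 3.10 and 3.31 FPKM equivalents in the 1000 ng replicates and 3.47, 2.82, 3.87, 3.68 and 2.93 in the 100 ng replicates. The groups overlapped. The log2 fold change was 0.03 ± 0.10 (limma, adjusted p = 0.826), and over the 5 tables it lay between -0.03 and 0.03. By limma 0 of 8 bins were called in each of those tables, for level and for usage, and 0 had an unadjusted p under 0.05. Over all bins tested in those tables, 1.95% to 21.3% were called for level and 3.9% to 19.2% for usage. Since the synthetic lists name different transcripts for the 2 backgrounds, bin shares were compared as well: E002, the first exon, held 9.32% ± 0.997 of the gene's reads at 1000 ng and 11.3% ± 0.907 at 100 ng (two-sided exact permutation p = 0.0159, adjusted p = 0.127 in the NuGENv2 table at 20M). The shares were the same in all 5 tables, and the adjusted p was lowest, 0.0592, with 80M TruSeq reads. With 20M TruSeq reads E002 held 11.3% ± 0.116 at 100 ng, without overlap, and was called (adjusted exact permutation p = 0.0261). The other 7 bins of Pla2g16 had raw exact permutation p of at least 0.175 in the NuGENv2 table at 20M. E007, which belongs to Pla2g16-003, held 1.85% ± 0.428 and 2.06% ± 0.503, and E008, which Pla2g16-001 and Pla2g16-002 share, held 17.0% ± 1.49 and 15.7% ± 1.60. At 6 to 21 reads in E007, a shift between these ends was not detectable.

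The TruSeq table at 20M differed in kind. Its 100 ng replicates held 3786 more Pla2g15 reads and 3585 more Pla2g16 reads each than the NuGENv2 table at 20M, and all 8 bins of each gene gained. In Pla2g15 the extra reads put 17.0% in E002 to E005 (exact Clopper-Pearson 95% interval 15.8 to 18.2) and 65.1% in E008, unlike the later TruSeq gain. In Pla2g16 the largest parts went to E006, E005 and E008, with 1113, 682 and 585 reads. The 100 ng replicates were nearly alike after this, at 6.94 to 7.09 for Pla2g15 and 3.06 to 3.15 for Pla2g16. Both totals were called higher in the 100 ng background, with log2 fold changes of -0.36 ± 0.06 (limma adjusted p = 0.000577) and -0.25 ± 0.05 (adjusted p = 0.00208), as were 5 and 6 of 8 bins. Over everything tested there, 79.3% of models, 62.4% of bins and, for usage, 18.1% of bins were called. Of the models, 21 were called higher at 1000 ng and 25 at 100 ng, which became 8 and 35 with total-read scaling and 2 and 47 without scaling, as the median log2 fold change of the 58 models went from 0.01 to -0.73 and -1.92. Pla2g15 and Pla2g16 were then at -1.20 and -0.92 with total-read scaling and at -2.45 and -2.03 without scaling. Usage was called for Pla2g15 E003 (0.32) and for 0 Pla2g16 bins, 2 of which had an unadjusted limma p under 0.05. Each of the 16 bins gained the same number of reads in all 5 replicates, so these differences go with reads joined to this one sample.

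Other models give a frame for both genes. For models with kit reads listed for a single background, the mixing set the direction to look for in advance. Their counts are therefore description and no independent support. The other 11 models with kit reads listed for 100 ng only were all called higher at 100 ng with 80M TruSeq reads, with log2 fold changes from -1.78 to -0.43 and a median of -0.87, against -0.09 over all 58 models. At 80M NuGENv2 reads 8 of the 11 were called, with a median of -0.32 against -0.06. These counts also depended on the scaling: with total-read scaling, without scaling and as deposited, 6, 5 and 4 of the 11 were called higher at 100 ng with 80M TruSeq reads, and 0 under each with 80M NuGENv2 reads, where their medians were -0.33, -0.02 and -0.02. Of the 5 models listed for the 1000 ng background only, 4 were called higher in that background and 1 lower at 80M TruSeq reads, against 1 and 0 under each of those scalings. Of the other 15 models on the endogenous synthetic list, 2 were called higher at 1000 ng and 1 at 100 ng in that table, with a median of -0.03.

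The models whose totals most resembled Pla2g15 over 11 samples, leaving out the sample of 100 ng and 20M TruSeq reads, were Fbf1, a cilium protein gene, at a Pearson r of 1.00, Sirpa at 0.998 and Rhbdd3 at 0.993. Over all 12 samples they were again the 3 highest, at 1.00, 0.998 and 0.993. For Pla2g16 they were Gas5, a noncoding snoRNA host gene, at 0.999, Tom40 at 0.999 and Prmt10 at 0.989. Over 12 samples Tom40 stayed at 0.999, Gas5 was at 0.958 and Prmt10 fell to 0.412. These are correlations of log2(mean total + 1), the 6 samples of a background share the same background reads, and each table was scaled on its own. Pla2g16 gained no reads in the 11 samples, so within a background its totals there differ by the scaling alone. Fbf1, Sirpa and Rhbdd3 carried added kit reads in the 100 ng background, as Pla2g15 did. They gained 344, 7859 and 140 reads there from 40M to 80M TruSeq source reads. Their correlations with Pla2g15 thus cannot be read as shared expression in the cells.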

How the data were processed

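The 6 deposited tables hold a coverage signal per exon bin for 12 samples of 5 replicates; STAR, Cuffdiff and mm9 are named in the submitters' processing notes, and the counting over bins is not described in the sources used here. Repeated rows (818 of 1744 per table) were dropped. Of 926 bins, 1 with non-finite values was left out. In 9 of 10 columns the deposited values were whole reads over bin length. The fifth 100 ng column was divided further by 16.0 to 200.9, read here as its library size in 1e6 reads. Lengths and divisors were inferred from the values, and 100.0% of values then gave whole reads within 0.001 reads, which for those 9 columns follows from how lengths were found. Scale and divisor are therefore inferences, and the label FPKM equivalent rests on them.

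Columns were scaled by median-of-ratios size factors, set to the fifth column's level. limma 3.58.1 in R 4.3.3 (lmFit, eBayes, diffSplice) was run per table on log2(value + 1), 5 against 5, two-sided, with Benjamini-Hochberg adjustment over all 924 bins or 58 models and a threshold of 0.05. Bins of models with no listed transcript needed a mean of at least 1. Totals are reads over all bins divided by the summed length. Exact permutation tests and Clopper-Pearson intervals used scipy 1.17.1. The fit was tested on simulated data. Bins were placed on GENCODE M1 by length, and sequences came from the NCBIM37 genome. Bins named in full are those called outside the TruSeq table at 20M or that gained reads with depth. The most similar models are the 3 with the highest Pearson r. The members and lists were chosen with earlier results of these data known. Alternatives were the scaling, the values as deposited, the pseudocount, the filter, a replicate block, each replicate left out and an exact permutation test. The column numbers come from the tables' headers, and nothing says that they pair the backgrounds.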

Additional observations from a re-analysis of the deposited data

Results flagged for a closer look

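With 80M TruSeq reads, 1 replicate stood far from the other 4 in 2 of 56 groups examined, and chance alone would flag some groups. The groups share replicates, so they are not independent. Pla2g16 E003 was 1.86 FPKM equivalents in 1 replicate of the 100 ng background, below the other 4, on 7 reads. Pla2g16 E008 was 1.55 in 1 replicate of the 1000 ng background, above the other 4.

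The kit difference of the totals differed between backgrounds for Pla2g15, by -0.88 at 40M and -1.27 at 80M on the log2 scale, and for Pla2g16 by 0.04 at 40M and 0.04 at 80M. The former goes with 535 and 1036 more reads in every 100 ng replicate of the TruSeq table. The latter goes with no change in reads and was 0 without scaling.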

How the results depend on the processing

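Scaling decided most calls. For Pla2g15 the called bins at 40M and 80M NuGENv2 reads went from 4 and 8 to 0 and 0 with total-read scaling, without scaling and with the values as deposited (100 ng replicate 5 left out). A replicate block gave 0 and 3. Its totals at 40M and 80M NuGENv2 reads had log2 fold changes of -0.31 and -0.50 with total-read scaling, 0.03 (reversed) and -0.17 without scaling, and -0.01 and -0.05 as deposited, none called, and -0.32 at 40M with the block, not called. At 20M NuGENv2 reads the uncalled Pla2g15 total changed sign, to 0.18 without scaling and 0.01 as deposited. At 40M TruSeq reads its called bins were 2 with total-read scaling, 1 without scaling and 0 as deposited, and its uncalled totals were -0.88 without scaling and -0.21 as deposited. At 80M TruSeq reads 3 bins were called as deposited, and at 20M TruSeq reads 8 under each of the 3 scalings. The cause was not tested.

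Alternatives for bin usage and for counts of called models were chosen after seeing the data. Called Pla2g15 bins at 40M TruSeq reads were 0 under all 3 scalings, and at 80M 2 with total-read scaling, 1 without scaling and 1 as deposited. At 40M and 80M NuGENv2 reads they were 0 under all 3 scalings and 0 with exact permutation of shares, and 0 at 80M with a pseudocount of 0.1. At 20M TruSeq reads Pla2g15 had 4 as deposited, and Pla2g16 had 3 with total-read scaling, 5 without scaling, 7 as deposited and 1 with permutation of shares.

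The uncalled Pla2g16 totals changed sign at 20M, 40M and 80M NuGENv2 reads, to 0.26, 0.26 and 0.26 without scaling and 0.02, 0.02 and 0.02 as deposited. Its kit difference was 0 at 40M and 0 at 80M without scaling, no longer called.

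Leaving out each replicate in turn gave 0 to 1 called Pla2g15 bins at 20M, 1 to 3 at 40M and 5 to 8 at 80M NuGENv2 reads, and 3 to 6 Pla2g16 bins at 20M TruSeq reads. Usage bins ranged from 0 to 2 at 20M TruSeq reads for Pla2g15 and 0 to 2 for Pla2g16, 0 to 2 at 40M and 0 to 1 at 80M NuGENv2 reads for Pla2g15. Pla2g16 totals ranged from -0.07 to 0.01 at 40M and -0.06 to 0.03 at 80M NuGENv2 reads, and from -0.04 to 0.05 at 40M and -0.03 to 0.07 at 80M TruSeq reads. The Pla2g15 totals at 40M and 80M TruSeq reads stayed called, from -1.26 to -1.15 and from -1.86 to -1.71.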
